A study of Mus musculus with 12 samples.

Results

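The genes described here encode the upstream part of the NF-κB pathway, from cell surface receptors to the IκB kinase (IKK) complex. They are 32 named genes, and a gene entered with every N6-methyladenosine (m6A) peak that overlapped its RefSeq span on GRCm38 by at least 1 base on its own strand. All 32 were found among the 21896 protein-coding genes of the gene table, and 31 had a peak in at least 1 of the 6 peak lists. Tnip3 had none. The lists come from m6A immunoprecipitation of poly(A) RNA from mouse cells, with 3 libraries of iNSCs and 3 of SSCs. iNSCs are neural stem cell-like cells made from SSCs, with no genetic change stated. The SSCs left in suspension after differential plating were put on laminin, given 1 µM retinoic acid in SSC medium for 24 h and moved to a neural medium with N2, B27, albumin, insulin, SB431542 (which blocks TGF-β type I receptors), bFGF and a little serum. SSCs are spermatogonial stem cells, the germline stem cells of the testis, cultured on mitotically inactive STO mouse fibroblasts. Their medium held serum, LIF, EGF, bFGF, GDNF, insulin, transferrin, putrescine and progesterone. Neither the mouse strain nor separate cultures are stated, so p-values speak of these libraries alone and their spread may be technical.

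In this pathway, receptors for TNF, IL-1 and bacterial products recruit adaptor proteins and kinases, and TRAF and IAP ubiquitin ligases build polyubiquitin chains on them. The chains recruit the TAK1 kinase and the IKK complex, which phosphorylates IκB so that the ligase subunit β-TrCP marks it for destruction and NF-κB is freed. A20, its ABIN partners and CYLD act as brakes on the ubiquitin steps. On mRNA, m6A is bound by reader proteins that affect how the transcript is used. The study is about the reader YTHDF1 and an axis of IκB, NF-κB and CCND1, as its title says, and the title also carries the tag of a DNA method, MeDIP, while the protocol is that of m6A on RNA.

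The iNSC lists held 13913, 16002 and 16060 peaks and the SSC lists 27597, 19728 and 24775. The lists hold no read counts, so the depth is unknown. Both expression and methylation of a transcript bear on whether it has a peak. The inputs were not analysed here. In bulk samples fewer cells of a type and less RNA per cell cannot be told apart. Labels disagreed on the cells: titles and source names were followed, and the cell type entry gives the reverse for every sample. Of 8 germ cell markers, 0, 0 and 1 had a peak in the iNSC lists and 7, 6 and 6 in the SSC lists. Gfra1 had its only peak in iNSC replicate 3, over 681 bases, and Dazl had its only peak in SSC replicate 1. Of 8 neural stem cell markers, 3 had a peak in each iNSC list and 5 in each SSC list. Among these, Pax6 was called in the iNSC lists alone, Sox2, Sox11 and Vim in the SSC lists alone, and Sox1 and Fabp7 in none. Of 10 macrophage and leukocyte markers, 1, 0 and 1 had a peak in the iNSC lists and 1, 1 and 0 in the SSC lists. Their summed bases under peaks were 0 to 1278 in iNSCs and 0 to 485 in SSCs, and Ptprc and Adgre1 were at 0 in all 6 lists. Of 8 fibroblast and feeder markers, 4, 3 and 4 had a peak in the iNSC lists and 5, 3 and 8 in the SSC lists, with summed bases of 3474 to 5683 and 2134 to 4311.

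Peaks at the starts of Ikbke and Cyld were among the sites that differed between the groups. Their start windows, and that of Traf3, whose start site was not called for 1 group, are shown to place the sites on the sequence. Each comes from the RefSeq promoter table on GRCm38.p6 and is printed 5′ to 3′, from 250 bases before an annotated start to the first 25 transcribed bases, with bases under a peak of any list in capitals. The Ikbke window (chr1:131279539-131279813, minus strand) was overlapped by a peak of no iNSC list and all 3 SSC lists. The Cyld window (chr8:88696778-88697052, plus strand) was overlapped by a peak of all 3 iNSC lists and no SSC list. The Traf3 window (chr12:111166120-111166394, plus strand) was overlapped by a peak of all 3 iNSC lists and 1 SSC list. The start peak of SSC replicate 3 began just past the window, so 2 SSC lists held the Traf3 start site.
Ikbke: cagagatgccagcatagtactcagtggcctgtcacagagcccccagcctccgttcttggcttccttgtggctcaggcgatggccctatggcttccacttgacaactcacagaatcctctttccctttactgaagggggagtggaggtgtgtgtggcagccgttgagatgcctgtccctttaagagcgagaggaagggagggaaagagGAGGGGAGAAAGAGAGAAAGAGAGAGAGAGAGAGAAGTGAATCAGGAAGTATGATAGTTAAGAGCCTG
Cyld: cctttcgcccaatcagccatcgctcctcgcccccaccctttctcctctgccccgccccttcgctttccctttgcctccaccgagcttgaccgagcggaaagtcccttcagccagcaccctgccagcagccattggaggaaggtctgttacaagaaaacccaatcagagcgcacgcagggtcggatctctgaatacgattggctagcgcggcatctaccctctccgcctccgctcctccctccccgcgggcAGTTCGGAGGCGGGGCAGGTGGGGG
Traf3: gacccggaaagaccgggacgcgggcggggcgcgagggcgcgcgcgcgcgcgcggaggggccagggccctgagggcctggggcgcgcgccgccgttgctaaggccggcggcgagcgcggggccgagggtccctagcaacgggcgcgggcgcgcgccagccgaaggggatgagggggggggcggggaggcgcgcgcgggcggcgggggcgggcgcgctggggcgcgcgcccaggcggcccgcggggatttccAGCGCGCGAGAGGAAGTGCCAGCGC
In Cyld and Traf3 the capitals begin at the first transcribed base of the table, as in 4 of the 10 members with a peak over bases of such a window. In Ikbke 68 bases of the window lay under the SSC peaks, and 83.8% of them were A or G, against a median of 50% over the same stretch of 32851 windows. Over the 10 members this share ran from 32% in Il1r1 to that of Ikbke, with 76.0% in Cyld and 68.0% in Traf3, and it was looked at after the values were seen. Of the 32 members, 27 had a window in the table.

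Most members carried a peak in both kinds of cell. In the iNSC lists 24, 25 and 25 of the 32 members had a peak, a share of 77.1% ± 1.80 (SD, n = 3), and in the SSC lists 25, 20 and 27, a share of 75.0% ± 11.3. Over all protein-coding genes the shares were 32.1% ± 1.36 in iNSCs and 43.5% ± 4.74 in SSCs. The members' means differed by 2.08 percentage points, which is less than the spread between the SSC libraries, while those of all genes differed by -11.4 points. With 13913 peaks kept in each list, the best by score, 24, 24 and 25 members had a peak in iNSCs and 16, 16 and 21 in SSCs. Over all genes the shares were then 30.5% ± 0.253 in iNSCs and 30.7% ± 1.03 in SSCs. Equal length shortens the SSC lists most and leaves iNSC replicate 1 whole. A member with a peak held 2.15 ± 0.263 peaks in iNSCs and 2.56 ± 0.486 in SSCs.

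**Figure D1:**
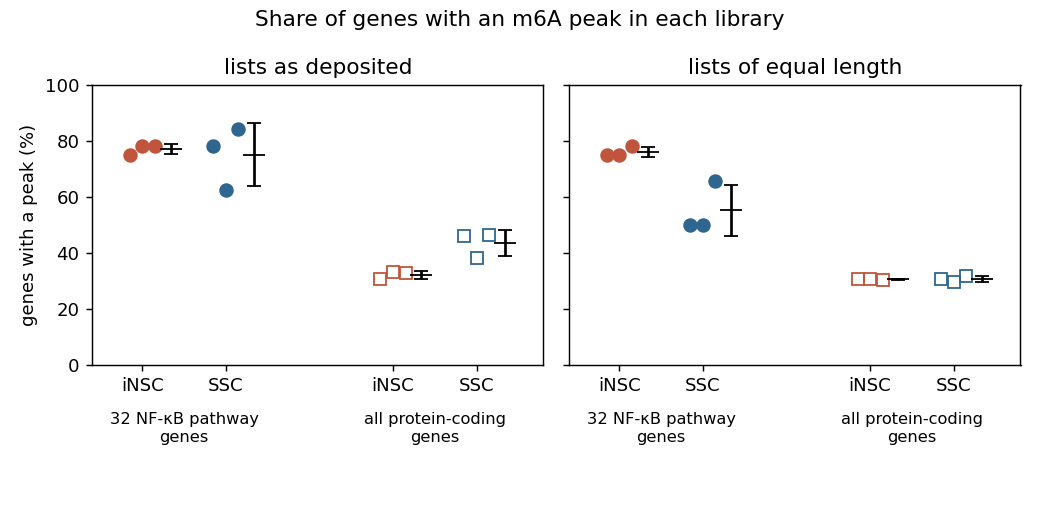
Percent of genes with an m6A peak (y axis) in each library, for the 32 pathway genes (filled circles) and all protein-coding genes (open squares), with lists as deposited (left) and of equal length (right). Bars are the mean ± SD of 3 libraries. As deposited, the pathway genes average 77.1% in iNSCs and 75.0% in SSCs, and at equal length 76.0% and 55.2%.

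The extent of the peaks was compared as well as their presence. A gene with a peak in every list of 1 group and in no list of the other differs in extent by definition. Extent therefore separates the groups for at least as many genes as presence does. The measure was the number of bases of a gene span under peaks in each list. It was higher in every iNSC list than in every SSC list for 13 of the 31 members with a peak (41.9%), where 17.8% of 13523 genes with a peak met that rule. It was higher in every SSC list for 2 members (6.45%), against 15.2% of genes. The median difference, iNSC minus SSC, was 427 bases over the members and -50.3 bases over all genes with a peak. Peaks were wider in iNSCs throughout the lists, with a median width of 412 ± 33.2 bases in iNSCs and 199 ± 5.69 in SSCs. The members' peaks had 540 ± 138 and 205 ± 16.4 bases. An exact two-sided permutation test over 3 against 3 libraries cannot go below p = 0.1, which each of these 15 members reached. With Benjamini-Hochberg adjustment over 13523 genes their p was 0.303, and 0 genes had an unadjusted exact p under 0.05, so no single gene passed a test. As presence calls, 1 member was iNSC-only (called in every iNSC list but no SSC list, 3.23% of 31, against 2.37% of genes), 2 were SSC-only (6.45%, against 11.0%) and 14 had a peak in all 6 lists (45.2%, against 30.0%). At equal list length 15 of 30 members had more bases in every iNSC list (27.5% of genes) and 1 in every SSC list (8.97%). Cyld, Ikbke, Tab1 and Tnfrsf1a then joined the iNSC side, and Irak4 and Tradd left it. With the better-scoring 50% of each list the numbers were 9 of 28 (17.9%) and 2 (13.4%). Tab1 and Tnfrsf1a then joined the iNSC side, and Irak4, Tlr4, Tradd, Traf2, Traf5 and Traf6 left it.

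**Figure D2:**
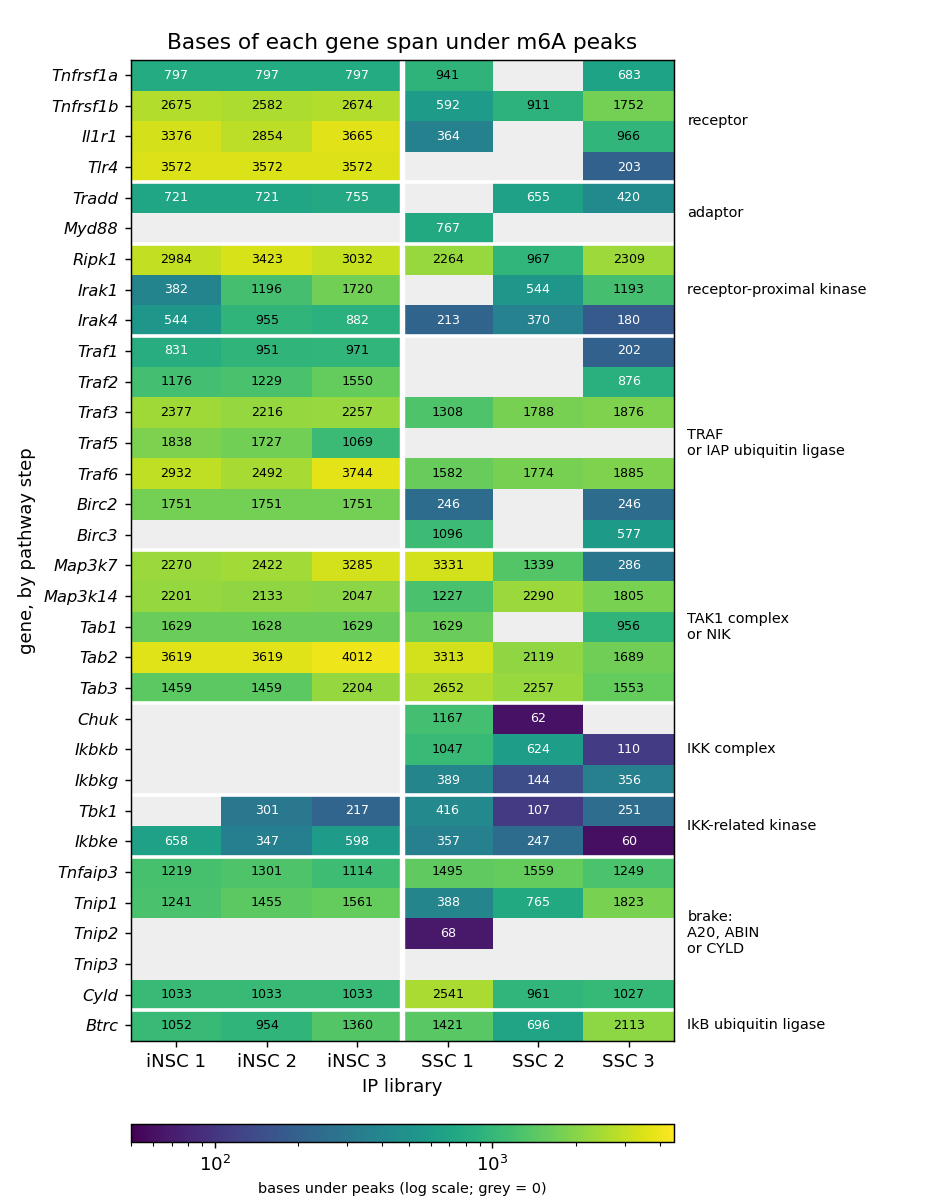
Bases of each gene span under m6A peaks (colour, log scale, with the value printed; grey means 0) for the 32 genes in pathway order (rows) in the 3 iNSC and 3 SSC libraries (columns). The rows of the IKK complex, Myd88, Birc3, Tnip2 and Tnip3 are at 0 in every iNSC library, and most receptor and TRAF rows are higher in iNSCs.

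Of the 4 receptor genes, 3 had more bases under peaks in every iNSC list, where 17.8% of all genes with a peak did. The 4 together had 10420, 9805 and 10708 bases under peaks in the iNSC lists and 1897, 911 and 3604 in the SSC lists. Tlr4, the receptor for bacterial lipopolysaccharide, had 3572 bases in each iNSC list, and 0, 0 and 203 in the SSC lists. Its iNSC peak had the same edges in all 3 lists (chromosome 4, 66839229 to 66842800), and the short SSC replicate 3 peak lay within it. With the better-scoring 50% of each list the groups overlapped, at a mean difference of 1123 bases, against 3504.3 as deposited. SSC replicate 3 was also the SSC list with peaks in all 8 fibroblast and feeder markers, and the part of that in the Tlr4 peak was not tested. Il1r1, the signalling receptor for IL-1, had 3376, 2854 and 3665 bases in iNSCs, against 364, 0 and 966 in SSCs. A site of 152 bases in Il1r1 (chromosome 1, 40302278 to 40302429) was iNSC-only, at score percentiles within the lists of 55, 15.8 and 27. The score is the authors' own value per peak, and its ranks in lists of different length cannot measure a change between libraries. Tnfrsf1b, which encodes TNF receptor 2, had 2675, 2582 and 2674 bases in iNSCs, against 592, 911 and 1752 in SSCs. All of these lay in 1 region near the gene end (chromosome 4, 145213426 to 145216100). The SSC peaks there lay inside the stretch that the iNSC peaks covered, so in the deposited lists the groups differed in width and not in place. Their score percentiles were 7.39, 1.79 and 73.4, so those of SSC replicates 1 and 2 were among the weakest of their lists. At equal list length Tnfrsf1b was no longer called in all 6 lists, and its mean difference was 2059.7 bases, against 1558.7 as deposited. Of the 10 macrophage and leukocyte markers, Cd14 had 1278 bases in iNSC replicate 3, Csf1r 616 in iNSC replicate 1, Spi1 485 in SSC replicate 1 and Itgam 80 in SSC replicate 2, and the other 6 were at 0. The part of leukocyte RNA in these receptor peaks was not tested. Tnfrsf1a, which encodes TNF receptor 1, overlapped between groups, with 797 bases in each iNSC list and 941, 0 and 683 in the SSC lists.

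The adaptor and proximal kinase genes were less uniform. Tradd, the death domain adaptor of TNF receptor 1, had 721, 721 and 755 bases in iNSCs and 0, 655 and 420 in SSCs. The iNSC values lay just above the highest SSC value, and the groups overlapped at equal list length and among the better-scoring 50% of peaks, at mean differences of 341 and 100 bases. Myd88, the adaptor of Toll-like and IL-1 receptors, had no iNSC peak and 767 bases in SSC replicate 1 alone. Ripk1, a kinase and scaffold recruited to TNF receptor 1, had 2984, 3423 and 3032 bases in iNSCs, against 2264, 967 and 2309 in SSCs. One Ripk1 region (chromosome 13, 34027718 to 34028251) was called in all 6 lists, over 534 bases in each iNSC list and 528, 534 and 534 in the SSC lists. A second Ripk1 site of 141 bases (34030040 to 34030180) was iNSC-only, with the same edges each time. Irak4, the first kinase to join MyD88, had 544, 955 and 882 bases in iNSCs, against 213, 370 and 180 in SSCs. Its sites varied within each group, and none of its 5 regions was called in every list of either group. With the better-scoring 50% of each list the mean Irak4 difference, iNSC minus SSC, turned to -77.3 bases, against 539 as deposited, and at equal list length it was 217 with overlapping groups. Irak1, its partner kinase, overlapped, with 382, 1196 and 1720 bases in iNSCs and 0, 544 and 1193 in SSCs.

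The ubiquitin ligase step, the largest with 7 members, had the most members with higher iNSC values, 6 of 7. Of all genes with a peak, 17.8% met that rule. Its 7 genes summed to 10905, 10366 and 11342 bases in iNSCs and 4232, 3562 and 5662 in SSCs. Traf5, an adaptor of TNF receptor family members, was the iNSC-only gene. It had 1838, 1727 and 1069 bases in iNSCs and 0 in each SSC list, in 1 region 58174 bases from the gene end (chromosome 1, 192055377 to 192057214, minus strand). Its score percentiles were 23.7, 29.3 and 21, in the weaker part of each list, and it had no peak in the better-scoring 50%. Traf1, a TRAF protein without a RING domain, had 831, 951 and 971 bases in iNSCs, against 0, 0 and 202 in SSCs. Its iNSC region (chromosome 2, 34943118 to 34944091) was not called in SSCs, and the SSC replicate 3 peak lay elsewhere in the gene. Traf2, which recruits cIAP ligases, had 1176, 1229 and 1550 bases in iNSCs, against 0, 0 and 876 in SSCs. Again SSC replicate 3 was the SSC list with a peak, and it overlapped the iNSC peaks. With the better-scoring 50% of each list the Traf2 values overlapped, at a mean difference of 510 bases. Without that library Tlr4, Traf1 and Traf2 were iNSC-only too, 4 members in all, against 4.42% of genes.

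Traf3 and Traf6 carried peaks in all 6 lists. Traf3, which holds the kinase NIK in check, had 2377, 2216 and 2257 bases in iNSCs, against 1308, 1788 and 1876 in SSCs. Its shared region (chromosome 12, 111261489 to 111263632) spanned 2144, 1983 and 2024 bases in iNSCs and 1053, 1050 and 1408 in SSCs, and SSC lists added 7 short sites upstream that no iNSC list held. The peak at its start, whose first 25 bases are the capitals shown above, spanned 233 bases in each iNSC list and 0, 233 and 200 in the SSC lists. Traf6, the ligase of the IL-1 and Toll-like receptor branch, had 2932, 2492 and 3744 bases in iNSCs, against 1582, 1774 and 1885 in SSCs. Its values overlapped with the better-scoring 50% of each list, at a mean difference of 832 bases. Sites of 72 bases (chromosome 2, 101691428 to 101691499) and 78 bases (101694255 to 101694332) in Traf6 were iNSC-only.

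The neighbouring genes Birc2 and Birc3, which encode the ligases cIAP1 and cIAP2, differed from each other. Birc2 had 1751 bases in each iNSC list, and 246, 0 and 246 in the SSC lists. The sites were different: the iNSC peak lay 1876 to 3626 bases from the gene start (chromosome 9, 7833505 to 7835255), with the same edges in 3 lists, and the SSC peak 15912 to 16157 bases from it (7820974 to 7821219). Birc3 had no iNSC peak, and 1096, 0 and 577 bases in the SSC lists. Birc2 and Birc3 are paralogs and can share reads, which makes the split between them uncertain.

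**Figure D3:**
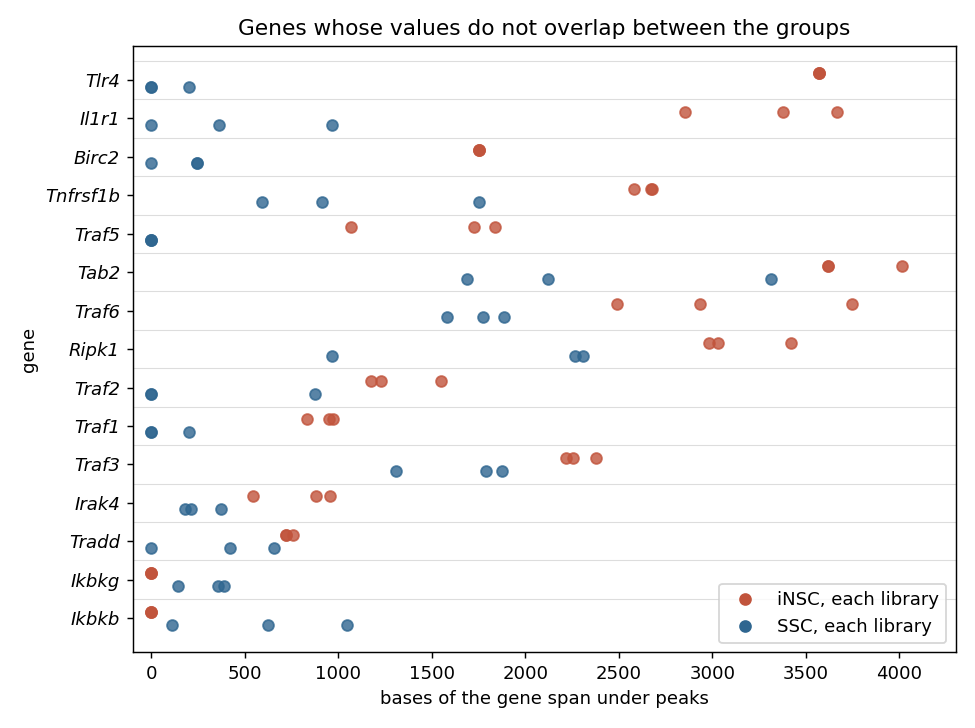
Bases of the gene span under peaks (x axis) in each iNSC (red) and SSC (blue) library for the 15 pathway genes whose values do not overlap between the groups, ordered by the difference of means. In 13 genes the 3 iNSC values exceed the 3 SSC values, and in Ikbkb and Ikbkg all iNSC values are 0.

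The TAK1 complex genes and the NIK gene had peaks in nearly all lists. Of the 5 genes, 4 had one in all 6, where 30.0% of all genes with a peak did. Tab2, whose protein binds polyubiquitin and brings TAK1 to it, had 3619, 3619 and 4012 bases in iNSCs, against 3313, 2119 and 1689 in SSCs. Its central region of 1501 bases (chromosome 10, 7919114 to 7920614) had the same edges in all 6 lists. Tab3, the paralog of Tab2 with the same role, overlapped, with 1459, 1459 and 2204 bases in iNSCs and 2652, 2257 and 1553 in SSCs. Tab3 shared a region of up to 1459 bases (chromosome X, 85613971 to 85615429) between all lists, and a site of 94 bases (85621554 to 85621647) was SSC-only. Tab1, the TAK1 activator, had 1629, 1628 and 1629 bases in iNSCs and 1629, 0 and 956 in SSCs, all near the gene end. Map3k7, the TAK1 gene, had 2270, 2422 and 3285 bases in iNSCs and 3331, 1339 and 286 in SSCs. Map3k14, which encodes NIK, the kinase of the noncanonical branch, had 2201, 2133 and 2047 bases in iNSCs and 1227, 2290 and 1805 in SSCs. The values of Tab1, Map3k7 and Map3k14 overlapped between the groups.

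The 3 genes of the IKK complex had no peak on their own strand in any iNSC list. Lacking one was common, as 30.5% to 33% of all protein-coding genes had a peak in an iNSC list. That base includes genes with no peak in any list. Of the 13523 genes with a peak in at least 1 list, 6682, 7230 and 7158 had one in the iNSC lists. Among the members, Myd88, Birc3, Tnip2 and Tnip3 had no iNSC peak either. Ikbkb encodes the catalytic subunit IKKβ of the canonical branch. It had 0 bases in each iNSC list, and 1047, 624 and 110 in the SSC lists. A site of 110 bases (chromosome 8, 22667224 to 22667333) was common to the 3 SSC lists, at score percentiles of 45.1, 57.1 and 47.1. The remaining Ikbkb peaks were spread over the gene, 6 of them in SSC replicate 1 and 1, which overlapped one of those, in SSC replicate 2. The strand of Ikbkb was not set, because 9 of its 10 peaks were on the minus strand and 1 on the plus strand, and peaks of both were kept. Ikbkg encodes NEMO, the subunit that binds polyubiquitin. It had 0 bases in each iNSC list, and 389, 144 and 356 in the SSC lists. No Ikbkg site was common to the 3 SSC lists, and 1 site of 144 bases (chromosome X, 74443345 to 74443488) was shared by SSC replicates 2 and 3. The 4 peaks over the Ikbkg span on the other strand, 2 in iNSC replicate 2, 1 in iNSC replicate 3 and 1 in SSC replicate 1, were not counted for it. With either strand counted, Ikbkg was no longer SSC-only, nor was it at equal list length. With the better-scoring 50% of each list, neither Ikbkb nor Ikbkg separated the groups, at mean differences of -232 and -96 bases. Chuk encodes the other kinase, IKKα. It had 0 bases in each iNSC list, and 1167, 62 and 0 in the SSC lists, with no site in 2 lists.

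Of the IKK-related kinases, Tbk1 overlapped between groups, with 0, 301 and 217 bases in iNSCs and 416, 107 and 251 in SSCs. Ikbke, which encodes IKKε, had 658, 347 and 598 bases in iNSCs, against 357, 247 and 60 in SSCs, which overlap. Its iNSC peaks lay at the gene end (chromosome 1, 131254681 to 131255338), a region that SSC replicate 1 shared over 92 bases. Each SSC list had a peak at the gene start (131279355 to 131279606), over 89, 252 and 65 bases, of which the capitals shown above are the outermost stretch, and no iNSC list held a peak there. SSC replicate 1 had a further 2 peaks within the gene, of 94 and 87 bases. The score percentiles of the start site were 1.51, 39.2 and 73.1.

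**Figure D4:**
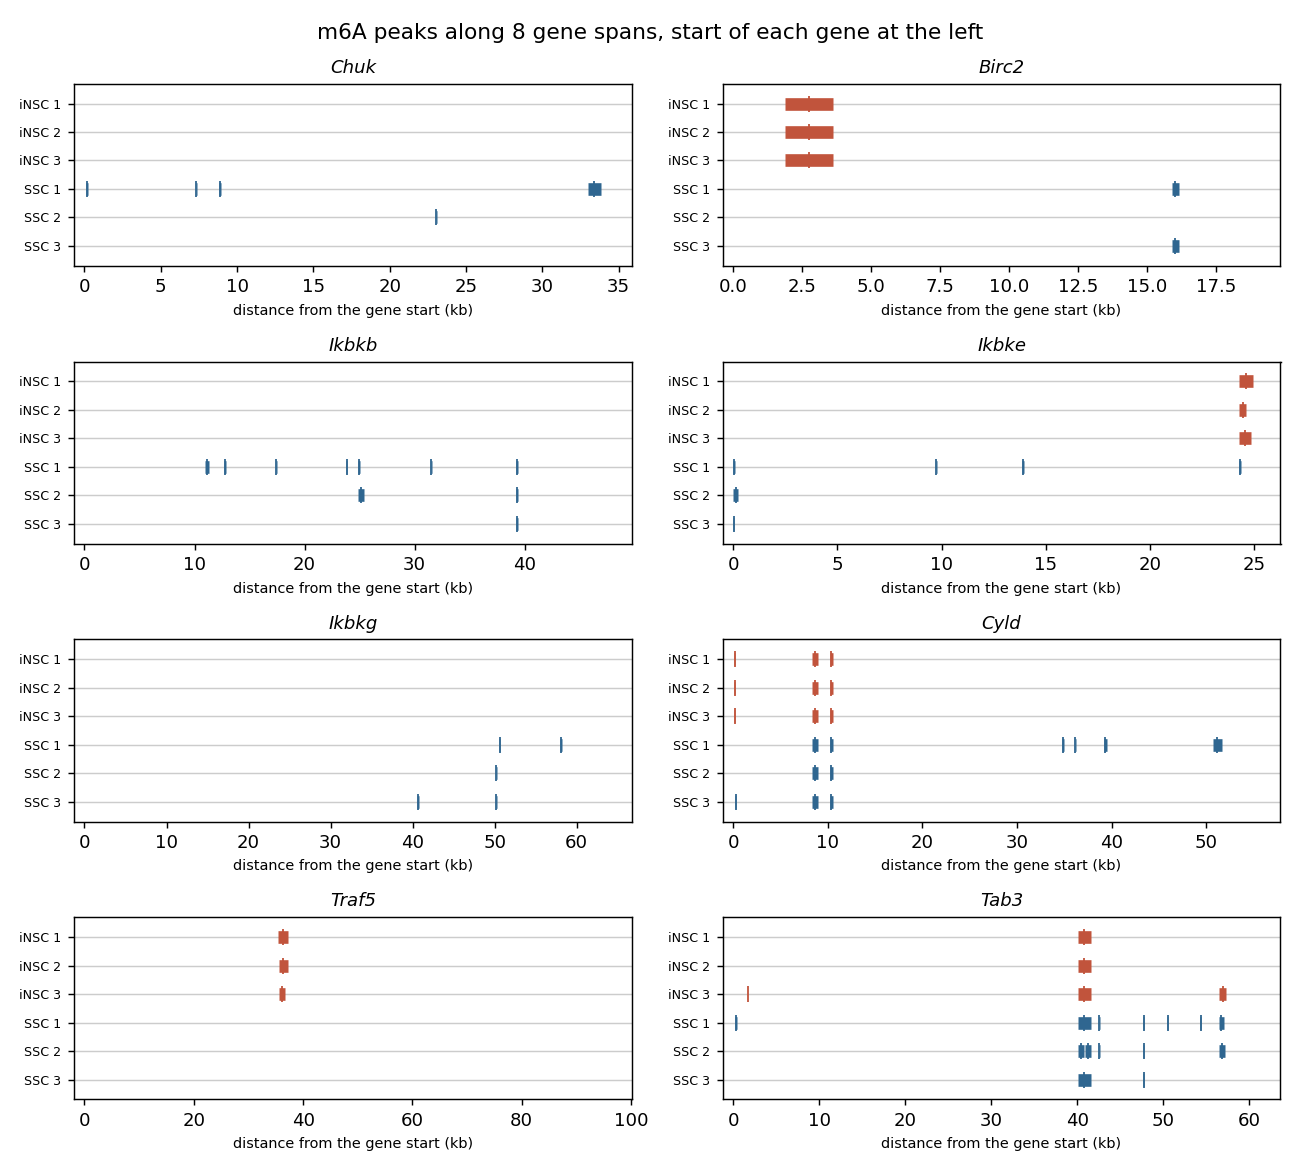
Peaks of 8 genes along the gene span (x axis, kb from the gene start; peaks drawn to scale with a tick at the centre) in each iNSC (red) and SSC (blue) library (rows). Peaks on the other strand of Ikbkg are not drawn. Chuk, Ikbkb and Ikbkg have no iNSC peak on their own strand, Traf5 has no SSC peak, and Birc2 and Ikbke have peaks at different places in iNSCs and SSCs, apart from the Ikbke gene-end peak of SSC replicate 1.

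The brakes and the β-TrCP gene did not separate the groups. Tnfaip3, the gene of the ubiquitin-editing enzyme A20, had 1219, 1301 and 1114 bases in iNSCs and 1495, 1559 and 1249 in SSCs. Its main region (chromosome 10, 19001715 to 19003015) was called in all 6 lists. Tnip1, which encodes the A20 partner ABIN1, had 1241, 1455 and 1561 bases in iNSCs and 388, 765 and 1823 in SSCs, with up to 9 peaks in a list. Of its sites, 2 of at most 132 bases were called in all 6 lists. Tnip2 had 68 bases in SSC replicate 1 alone. Cyld, the gene of a deubiquitinase, had 1033 bases in each iNSC list and 2541, 961 and 1027 in the SSC lists. Its sites of 658 bases (chromosome 8, 88705222 to 88705879) and 303 bases (88707089 to 88707391) had the same edges in all 6 lists. The Cyld site of 72 bases at the annotated start (88697028 to 88697099) was iNSC-only, and SSC replicate 3 had a peak of 66 bases just downstream. Btrc, which encodes β-TrCP, had 1052, 954 and 1360 bases in iNSCs and 1421, 696 and 2113 in SSCs. Btrc had 2 sites in all 6 lists, 1 of them 46 to 198 bases from the gene start (chromosome 19, 45363734 to 45363886). A Btrc region near the gene end (45528973 to 45530116) was called over 821, 723 and 1144 bases in iNSCs and in no SSC list. SSC peaks lay on either side of it. SSC replicates 1 and 3 had 745 and 848 bases upstream (45521323 to 45522237). SSC replicates 2 and 3 had 354 and 647 bases closer to the gene end (45531508 to 45532154).

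Merged across lists, the members' peaks formed 134 regions. Of these, 9 were iNSC-only (6.72%, against 3.43% of 47468 regions in protein-coding genes), 3 were SSC-only (2.24%, against 5.59%) and 14 were in all 6 lists (10.4%, against 10.1%). The 9 iNSC-only regions lay in Il1r1, Ripk1, Traf1, Traf5, Traf6 (2), Birc2, Cyld and Btrc, and the 3 SSC-only regions in Tab3, Ikbkb and Ikbke. In the 14 shared regions, 5 had the same edges in all 6 lists (35.7%, against 56.4% of 4816 shared regions). The iNSC peaks were wider in every list in 3 of them, those of Tnfrsf1b, Traf3 and Map3k14 (21.4%, against 12.3%), and the SSC peaks in 0 (against 1.02%). Of the 134 regions, 61 were called in 1 list alone (45.5%, against 46.3% of all regions), 34 of them in SSC replicate 1, 9 in SSC replicate 2 and 13 in SSC replicate 3, and 0, 2 and 3 in the iNSC lists. Of the members' peaks, 29.1% ± 2.26 had their centre within 2000 bases of the gene end in iNSCs and 19.7% ± 4.09 in SSCs (n = 3 each), against 22.8% and 17.1% over all genes. The first 500 bases held 8.70% ± 3.06 in iNSCs and 8.04% ± 1.11 in SSCs, which differed by less than the spread between libraries.

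**Figure D5:**
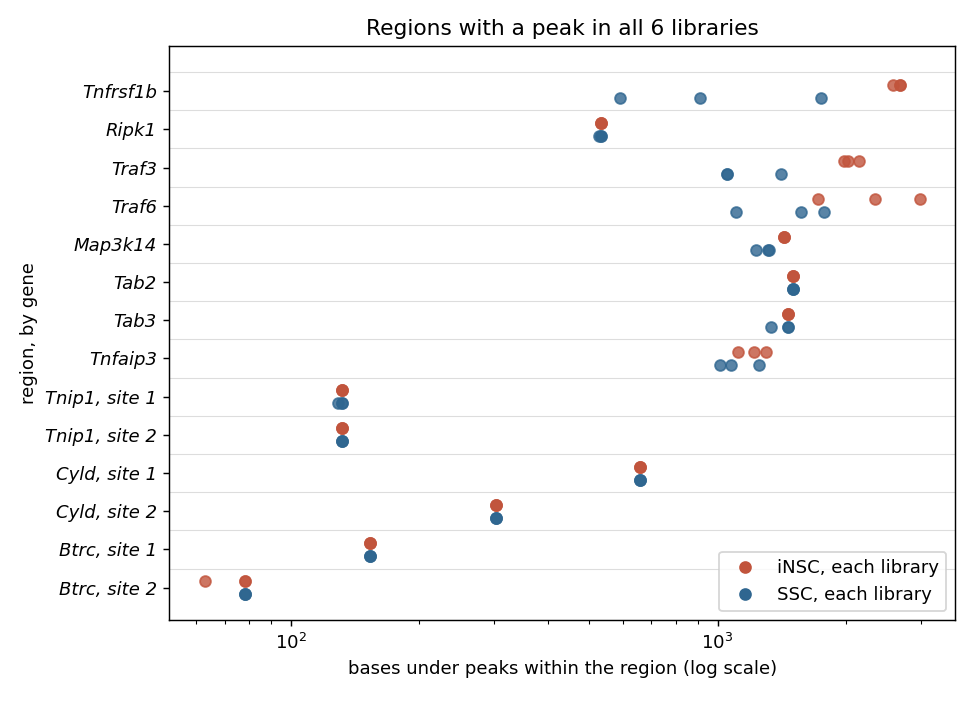
Bases under peaks (x axis, log scale) within each of the 14 regions that had a peak in all 6 libraries, in each iNSC (red) and SSC (blue) library. The Tnfrsf1b, Traf3 and Map3k14 regions are wider in every iNSC library, and those of Tab2, Cyld, Btrc site 1 and Tnip1 site 2 are equal.

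The remaining genes of the pathway were read from a list of 57 further receptors, adaptors, kinases, ubiquitin genes and ligands. Of these, 43 had a peak in at least 1 list, 20 had more bases under peaks in every iNSC list and 3 in every SSC list, where 17.8% and 15.2% of all genes with a peak did. As presence calls 4 were iNSC-only and 2 SSC-only, where 2.37% and 11.0% of all genes were. The iNSC-only genes were the pattern receptor genes Tlr2, Tlr7 and Nod2, and Tnf, which encodes the ligand of the TNF receptors. Tlr2 had 2518, 2516 and 2516 bases in iNSCs and 0 in each SSC list, and Tnf had 1197 in each iNSC list and 0 in each SSC list. The SSC-only genes were Malt1, whose protein links antigen receptors to IKK, and Lta, which encodes lymphotoxin α. Malt1 had 0 bases in each iNSC list and 1738, 1167 and 510 in the SSC lists. Of the 19 further receptor genes, 10, 10 and 11 had a peak in the iNSC lists and 3, 6 and 7 in the SSC lists, beside the leukocyte markers given above, of which 6 of 10 had no peak in any list.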

How the data were processed

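The authors deposited 1 peak list for each of 6 m6A immunoprecipitation libraries, with a score per peak in the fifth of 6 columns and no unit stated. The lowest score is 50 in every list, and the highest are 3215.9 to 3233.1. Many strong peaks share a score of 3100, so their ranks are tied. Of the peaks in protein-coding genes, 15%, 17.7% and 16% scored at least 3100 in the iNSC lists. In the SSC lists 3.69%, 7.52% and 4.44% did. Tools listed by the submitters' processing notes are HISAT2 2.0.4 and cutadapt 1.9.3, and the build listed is mm9. The peak names carry a MACS prefix, and the caller's threshold is not given in the sources used here. Peak edges fell on GRCm38.p6 gene edges for 4.90% to 12.0% of peaks, against 0.0101% to 0.0312% after a shift of 10000 bases, so coordinates are given on GRCm38, 1-based. Of 118075 peaks, 116315 overlapped a protein-coding gene span on its strand by at least 1 base. The strand came from the RefSeq promoter table (17491 genes) or from over 90% of the gene's own peaks (2538 genes, Tlr4, Tradd, Tab1 and Btrc among them), and for 1867 genes peaks of both strands were kept. A peak over 2 genes of 1 strand counted for both. Peaks of all lists overlapping on 1 strand were merged into regions. Exon models, genome sequence beyond the promoter windows and the 6 input samples were not used here. Depth is unknown, so errors are SDs over libraries and no counting interval is given. Bases under peaks were compared over libraries with an exact permutation test in Python 3.11.15 with numpy 2.4.6, tested on simulated lists. Alternatives were peak strength, list length, overlap, strand, peak width, the replicate block and each library left out. By rule, values in every list go to members that were iNSC-only or SSC-only, did not overlap between groups or held such a region, and here the other members have them too. Of the further pathway genes, those called iNSC-only or SSC-only are named. The members, their order by pathway step, the further pathway genes and the markers were chosen with earlier results of these data known.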

Additional observations from a re-analysis of the deposited data

How the results depend on the processing

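Depth is unknown, and the score threshold of the lists limits which peaks are seen. Leaving out 1 library cannot undo non-overlap, so the 15 members that differed in bases under peaks kept theirs by definition. The numbers of members called can likewise only stay or rise, and neither is a test of the calls. Without 1 library, iNSC-only members numbered 1 to 4 (2.56% to 4.52% of genes) and SSC-only members 2 to 3 (11.4% to 17.7%). Members in all remaining lists numbered 14 to 18 (31.0% to 34.8%). Members with more bases in iNSCs numbered 13 to 18 (20.2% to 23.3%), and in SSCs 2 to 5 (16.1% to 24.4%). The iNSC-only regions numbered 9 to 13 (4.14% to 6.53% of all regions), and the SSC-only regions 3 to 9 (5.89% to 11.2%). The difference in the share of members with a peak then ranged from -4.17 to 6.77 percentage points, and that in the last 2000 bases from 7.41 to 11.5. Without SSC replicate 3, Tlr4, Traf1 and Traf2 were also iNSC-only (4 in all, against 4.42% of genes). Chuk was then also SSC-only (3 in all, against 14.7%), and 5 members had more bases in SSCs (against 21.4%). Without SSC replicate 2, Birc3 was also SSC-only (3 in all, against 17.7%) and 4 members had more bases in SSCs (against 24.4%). SSC-only regions numbered 6, 9 and 6 without SSC replicate 1, 2 and 3.

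With the better-scoring 50% of peaks alone, iNSC-only members numbered 3 (Il1r1, Tab1 and Traf1) and members in all 6 lists 8, of 28 with a peak (4.61% and 21.1% of genes). The iNSC-only regions numbered 4 of 58 (4.94% of all regions), and the difference in the last 2000 bases was 15.1 points. The SSC-only members were then Btrc and Map3k14 (2 of 28, against 9.85% of genes) in place of Ikbkb and Ikbkg. Traf5 then had no peak in any list (difference 0), and the Irak4 difference turned to -77.3 bases. Over all these alternatives other than leaving out a library, the single members' results kept direction and non-overlap in 93 of 105 cases. The cases of the replicate block could not fail, since non-overlap makes all pairs move the same way. With the better-scoring 50% of peaks, non-overlap was lost for Ikbkb, Ikbkg, Irak4, Tlr4, Tradd, Traf2, Traf5 and Traf6. At equal list length, of 30 members with a peak, iNSC-only ones numbered 4 (Il1r1, Tab1, Traf1 and Traf5; 7.22% of genes), SSC-only ones 1 (6.77%) and those with more bases in SSCs 1 (8.97%; Ikbkb in both). SSC-only regions numbered 0 of 81 (4.26%), and the share of members with a peak differed by 20.8 points. With peaks of either strand, SSC-only members and members with more bases in SSCs each numbered 1 of 31 (10.9% and 15.1% of genes). With a peak in at least 2 of 3 lists, SSC-only members numbered 4 of 31 (22.2% of genes), SSC-only regions 15 of 134 (16.6% of all regions) and iNSC-only regions 14 (5.76%). With peaks of 100 bases or more, SSC-only regions numbered 1 of 102 (5.59%). In the last 500 bases the difference was 2.59 points. The cause of these shifts was not tested.

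Same-numbered libraries share a number and no stated source. Their deviations in bases under peaks correlated at 0.01, -0.02 and 0.03. With the replicate number as a block, 15 members had more bases in iNSCs in all 3 pairs, and 3 had more in SSCs. Of all genes with a peak, 20.7% and 16.9% met this rule. Without the block the counts were 13 and 2, and the members counted there meet the block rule by definition.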
